A study of Homo sapiens with 18 samples.

Results

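Torin1, an ATP-competitive inhibitor of the kinase mTOR, was compared with no inhibitor in serum-starved HEK-293E cells, a human embryonic kidney line. The comparison rests on 6 of the 18 RNA sequencing libraries of the study, namely 3 labelled starvation and 3 labelled starvation with Torin1, and on every gene that passed a filter on low counts, 16414 of 60623. Starved cells were kept overnight in DMEM that held 0.1% fetal bovine serum in place of the usual 10%. The other 12 libraries are of cells re-fed with regular growth medium (1 or 4 h, untreated or given Torin1) and serve below to show where the response of starved cells differed. All groups are of 1 cell line, and neither the Torin1 dose nor its duration is stated in the labels. Nothing in the labels ties a replicate to its own culture. The p-values therefore reflect only how much these libraries vary, which may be technical variation.

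mTOR is the catalytic subunit of the complexes mTORC1 and mTORC2. mTORC1, held on the lysosome by Rag and RHEB proteins, promotes protein, lipid and nucleotide synthesis when amino acids, energy and growth factors are present, and restrains autophagy and the lysosomal factors TFEB and TFE3. It also raises the translation of ATF4, the transcription factor that drives amino acid transporters, amino acid synthesis and tRNA charging. mTORC2 acts on AKT and on the actin cytoskeleton.

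Library totals were between 10510689 and 13676378 counts in the 6 libraries. Along principal component 1, with 76% of the variance, the starved libraries lay at -70.1 to -60.9 and the Torin1 libraries at 60.6 to 67.4. On component 2, with 7.6%, starved replicate 1 stood at 39.4, apart from the other starved libraries at -17.7 and -20.6. That library also held RNA of fibroblast collagens. COL1A2 was at 6.9, 0.334 and 0.276 CPM (counts scaled to library size, with TMM factors) in starved replicates 1 to 3, COL3A1 at 10.6, 0.585 and 0.459 CPM, and neither was called between the groups. The median of the fibroblast list was -2.56, and 0.28 without starved replicate 1. The summed level of 10 fibroblast markers ranged from 11.3 to 45.7 CPM in starved and from 17.6 to 19.1 CPM in Torin1 libraries. Without that library 5288 genes were higher and 4690 lower, and 9658 of the calls of the full set were kept. Mitochondrially encoded RNA held 1.87% to 2.59% of counts in starved and 2.39% to 3.33% in Torin1 libraries. Among genes known from HEK-293 cells, the neurofilament gene NEFM and the kidney regulator EYA1 were detected, and the list summed to 1000 to 1170 CPM in starved and 1420 to 1620 CPM in Torin1 libraries. Blood and immune markers summed to 19.8 to 20.6 and 4.41 to 6.96 CPM, most of it the alpha globin gene HBA1. HBB was at 0 counts in all 6 libraries and PTPRC, the pan-leukocyte marker, had 3 counts in starved and 0 in Torin1 libraries. Endothelial markers summed to 0.643 to 2.92 and 0.481 to 0.766 CPM, and epithelial carcinoma markers to 62.9 to 74.3 and 30.1 to 38.6 CPM, most of it the homeobox gene CDX2. In bulk RNA, fewer cells of a type and less RNA per cell cannot be told apart.

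Torin1 changed the level of most genes detected in starved cells. By edgeR's quasi-likelihood test at an adjusted p under 0.05, the rule used for every call below, 10418 of 16414 genes were called (63.5%), 5559 higher (33.9%) and 4859 lower (29.6%). Large changes were more often rises: at least 2-fold changes numbered 2972 upward and 1533 downward, and at least 4-fold changes 834 and 273. The median log2 fold change of all genes was 0.09, with quartiles at -0.50 and 0.80. Rises, falls, medians and SE given below are on the log2 scale unless a level in CPM is named. The split depends on scaling. With total counts in place of TMM factors the median of all genes was 0.23 and the split 6494 higher to 4063 lower, and with DESeq2 size factors these were 0.04 and 5241 to 5126. Levels in the 3 starved and 3 Torin1 libraries did not overlap for 11246 genes (68.5%), with the Torin1 levels higher for 36.8% of genes and lower for 31.7%.

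Long noncoding RNAs leaned upward, with 32.1% of 1943 higher and 12.9% lower (median 0.41), whereas protein-coding genes were nearly even, with 34.8% of 13616 higher and 32.9% lower (median 0.05). Of 431 genes with a ZNF symbol, most of which encode zinc finger transcription factors, 209 were higher (48.5%) and 86 lower (20%), against 34.4% and 33.4% of the other protein-coding genes. Among protein-coding genes, the share called higher was 28.6% in the shortest of 4 equal bins of summed exon length and 39% in the longest, and the share called lower went from 36.6% to 27.3%. Whether length or exon number plays a part in these shares was not tested.

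**Figure D1:**
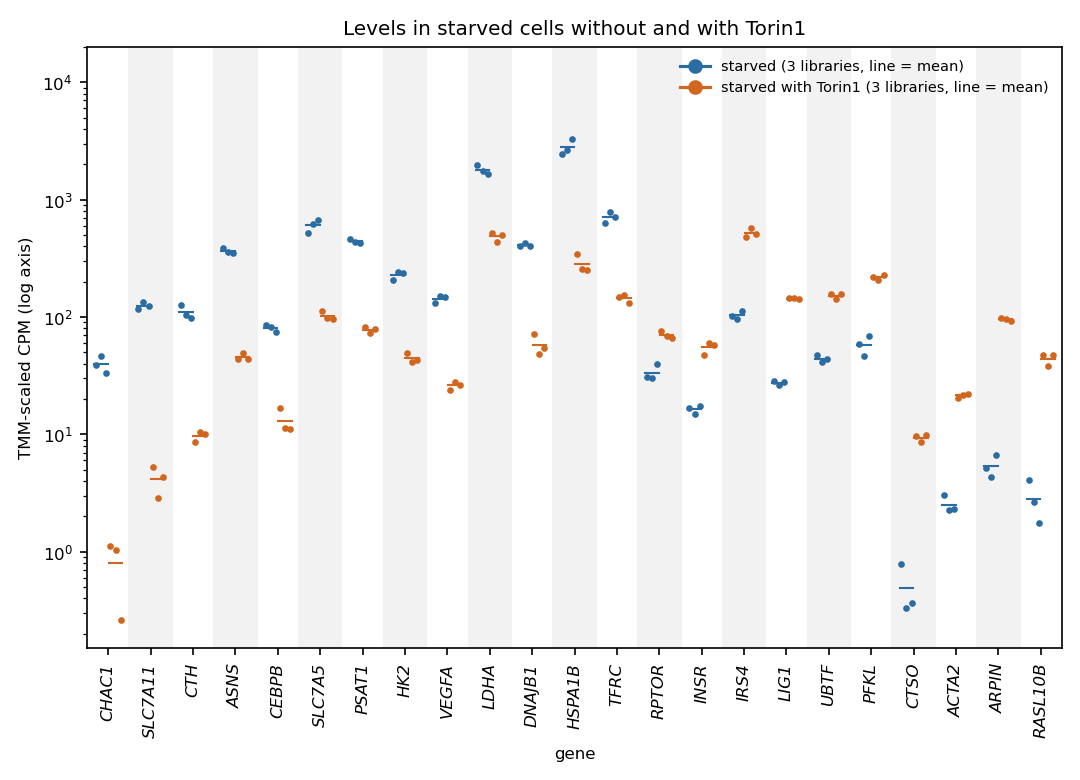
Level of 23 genes in the 6 libraries, in TMM-scaled CPM on a log axis, with a point for each library and a line at the mean of each group of 3. CHAC1, SLC7A11, CTH and ASNS were lower in every Torin1 library than in every starved library, and ARPIN, RASL10B, ACTA2 and CTSO were higher in every one. Lack of overlap held for 68.5% of all genes. It was also part of the rule for the largest changes, which include CHAC1, SLC7A11, CTH, ASNS, ARPIN and RASL10B.

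CHAC1 and SLC7A11, genes of the ATF4 pathway, had the deepest called falls among the genes named here. ASNS of the same pathway fell less than several genes outside it, such as GALR2 and HSPA1B. CHAC1 (ENSG00000128965), which degrades glutathione, stood at 38.97, 46.1 and 33.2 CPM in starved replicates 1 to 3 and at 1.11, 1.04 and 0.263 CPM with Torin1. SLC7A11 (ENSG00000151012), the cystine importer, stood at 117, 133 and 123 CPM and, with Torin1, at 5.29, 2.88 and 4.3 CPM. ASNS (ENSG00000070669), which makes asparagine, stood at 387, 358 and 352 CPM against 43.6, 48.97 and 44.2 CPM. For each of these genes the 2 groups lay far apart. CHAC1 was uneven with Torin1, on 16, 13 and 3 counts in replicates 1 to 3, so its fold change rests on few counts there. The log2 fold changes were -5.55 (SE 0.33, edgeR adjusted p = 4.83e-12) for CHAC1, -4.89 (SE 0.19, edgeR adjusted p = 8.1e-16) for SLC7A11 and -3.00 (SE 0.10, edgeR adjusted p = 1.59e-20) for ASNS.

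ATF4 binds a composite C/EBP-ATF element. The letters TGATGNAA, searched on both strands of the 250 bases before the annotated start, were present in 3.19% of all 27305 RefSeq promoter windows (GRCh38.p14) and in 1.31% of the 11718 windows of tested genes. They were present in 1.86% of windows of genes called lower, in 3.11% of those lower by at least 2-fold and in 1.06% of those called higher. In the list of asparagine, proline, glutamine, cysteine and glutathione enzymes 4 of 20 windows held them. For ATF4 and its partners it was 2 of 17 windows, and for cytosolic aminoacyl-tRNA synthetases 2 of 19. For amino acid transporters it was 1 of 23, and for serine and one-carbon genes 1 of 19. The following stretches, 5′ to 3′ on the gene's strand, are shown as examples of windows with the element before genes that fell, with the element, on either strand, in capitals.
ASNS (chr7:97872449-97872496, minus strand): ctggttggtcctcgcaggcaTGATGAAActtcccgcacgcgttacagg
CHAC1 (chr15:40953242-40953289, plus strand): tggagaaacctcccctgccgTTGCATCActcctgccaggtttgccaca
BCAT1 (chr12:24949122-24949169, minus strand): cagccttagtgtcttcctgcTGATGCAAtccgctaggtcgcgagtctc
OSTN (chr3:191199137-191199184, plus strand): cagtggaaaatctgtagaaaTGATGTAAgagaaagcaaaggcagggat
The first capital lies 68 bases before the start in ASNS, 209 in CHAC1, 48 in BCAT1 and 84 in OSTN. BCAT1 and ASNS also hold the heat shock letters described below. The ATF4 letters stood as well before HRK and TSC2, which rose, so a match is a description of the window only.

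Among ATF4 and its partners, 13 of 18 tested genes were lower and 3 higher, with a median of -1.13. ATF4 (ENSG00000128272) itself was at 635, 634 and 648 CPM and, with Torin1, at 378, 377 and 395 CPM, a fall of 0.74 on the log2 scale (SE 0.07). Its dimerisation partners CEBPB and CEBPG fell by 2.63 (SE 0.15) and 1.58 (SE 0.10). DDIT3, the stress factor CHOP, went from 41.4, 36.9 and 29.02 to 8.07, 5.85 and 5.44 CPM, a fall of 2.46 (SE 0.24), and TRIB3, a pseudokinase that feeds back on ATF4 and AKT, fell by 2.32 (SE 0.13). The inputs to the pathway went both ways. EIF2S1, the alpha subunit of eIF2 whose phosphorylation raises ATF4 translation, fell by 1.48 (SE 0.09), as did the endoplasmic reticulum kinase EIF2AK3 by 1.05 (SE 0.11) and the eIF2 phosphatase subunit PPP1R15B by 1.21 (SE 0.10). The kinase that senses uncharged tRNA, EIF2AK4 (GCN2), rose by 0.99 (SE 0.10). CEBPA and ATF5 were the other members called higher, at 0.68 (SE 0.18) and 0.65 (SE 0.19), and the call of ATF5 was lost without Torin1 replicate 1.

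Amino acid transporters fell in 15 of 27 cases and rose in 5 (median -0.49). The subunits of the large neutral amino acid exchanger fell together, SLC7A5 from 520.3, 620.2 and 669 to 112, 98.5 and 96.2 CPM (by 2.56, SE 0.10) and SLC3A2 by 1.75 (SE 0.13). The glutamine carriers SLC1A5 and SLC38A1 fell by 2.00 (SE 0.11) and 1.61 (SE 0.09), and the glycine transporter SLC6A9 by 2.63 (SE 0.15). Among the risers were the cationic amino acid transporter SLC7A2 (0.96, SE 0.11), the mitochondrial aspartate-glutamate carrier SLC25A12 (1.16, SE 0.14) and the lysosomal glutamine exporter SLC38A7 (1.12, SE 0.12).

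Of 28 enzymes of asparagine, proline, glutamine, cysteine and glutathione metabolism, 18 were lower and 7 higher (median -0.84). CTH, which makes cysteine from cystathionine, went from 127, 104 and 98.2 to 8.56, 10.4 and 10 CPM, a fall of 3.51 (SE 0.14). The secreted ATF4 target STC2 fell by 2.97 (SE 0.09), arginase ARG2 by 2.07 (SE 0.10) and the cytosolic branched-chain aminotransferase BCAT1 by 1.79 (SE 0.11). Its mitochondrial counterpart BCAT2 went the other way, from 15.7, 10.9 and 13.9 to 55.5, 49.4 and 47.6 CPM (1.92, SE 0.18), with no overlap between the groups. Glutathione synthetase GSS and the proline enzyme PYCR3 also rose, by 1.10 (SE 0.10) and 1.12 (SE 0.12).

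Serine synthesis and one-carbon folate metabolism fell in 16 of 26 genes and rose in 4 (median -0.42). PSAT1, a serine synthesis enzyme, went from 459, 439 and 426 to 81.8, 73.3 and 78.96 CPM, a fall of 2.50 (SE 0.08). The mitochondrial folate enzymes MTHFD1L and MTHFD2 fell by 1.71 (SE 0.08) and 1.56 (SE 0.08), and PHGDH, which starts serine synthesis, by 1.08 (SE 0.08). Thymidylate synthase TYMS and methionine synthase MTR rose, by 0.85 (SE 0.09) and 0.89 (SE 0.08). AMT, of the glycine cleavage system, rose from 0.583, 0.501 and 0.551 to 2.65, 5.69 and 5.7 CPM (3.07, SE 0.42), on 18 counts in starved and 174 in Torin1 libraries.

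Cytosolic and mitochondrial aminoacyl-tRNA synthetases, which charge tRNAs in the respective compartment, had opposite balances. In the cytosolic list 16 of 23 were lower and 6 higher (median -0.63), led by GARS1, which fell by 2.09 (SE 0.09), TARS1 (1.91, SE 0.09) and the complex member EEF1E1 (1.87, SE 0.11). VARS1, QARS1 and the scaffold AIMP1 rose, by 1.01 (SE 0.15), 0.83 (SE 0.07) and 1.05 (SE 0.11). In the mitochondrial list 9 of 17 were higher and 5 lower (median 0.34). AARS2 rose from 19.1, 18.6 and 18.9 to 62.2, 70.7 and 67.4 CPM (1.82, SE 0.11), VARS2 by 1.83 (SE 0.15) and TARS2 by 1.70 (SE 0.12), while EARS2 and MARS2 fell by 1.35 (SE 0.10) and 1.65 (SE 0.19). The difference between the lists was not tested.

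**Figure D2:**
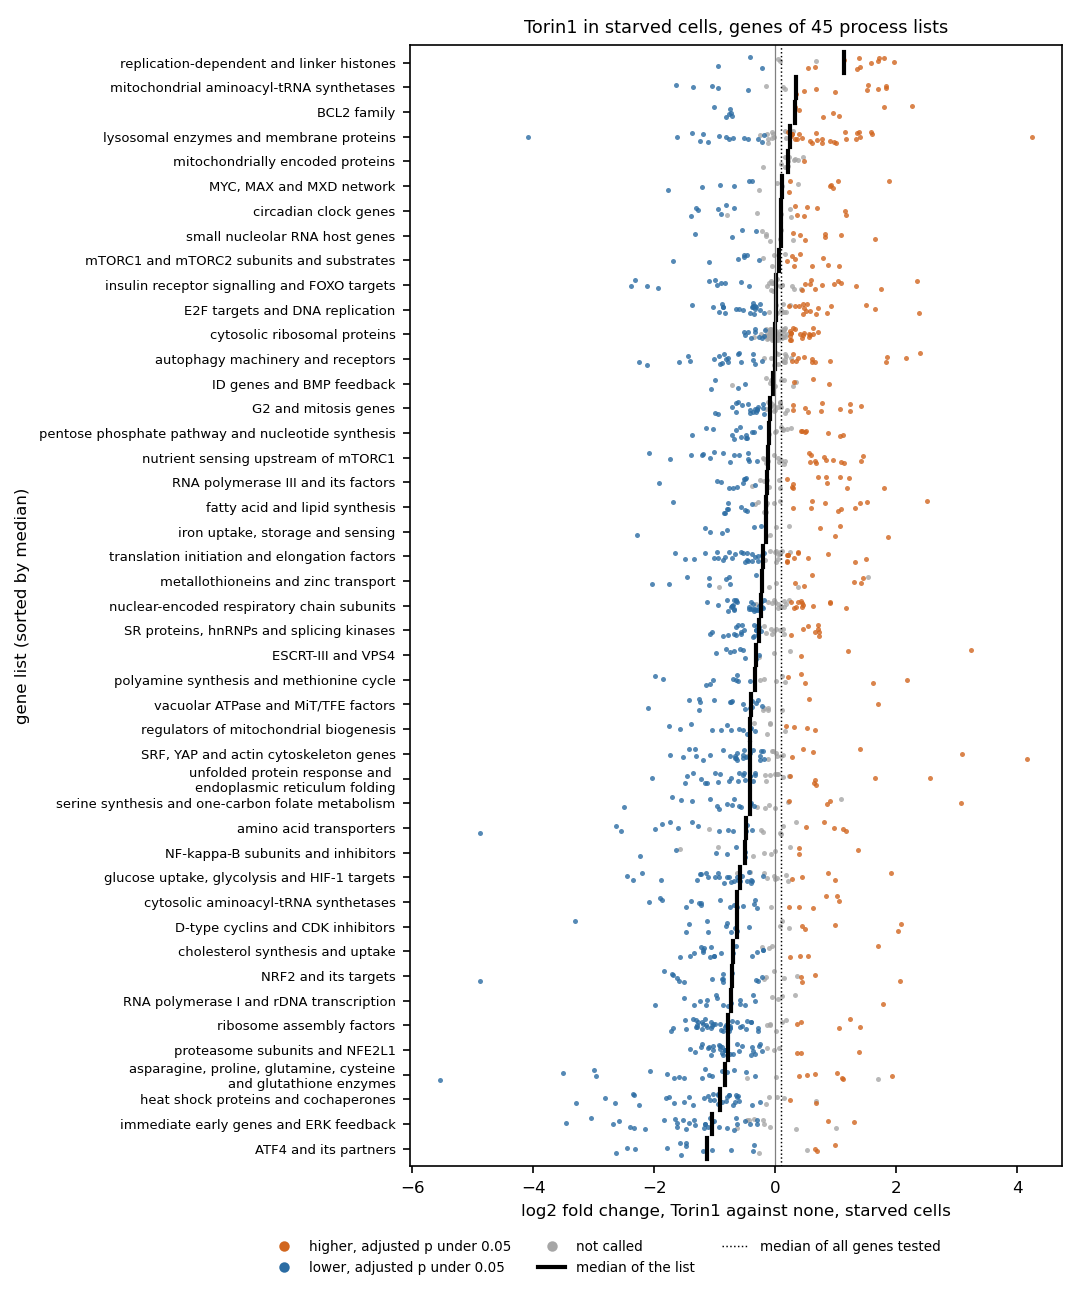
Log2 fold change with Torin1 in starved cells for every tested gene of 45 gene lists, a point for each gene, coloured by its call, with the median of each list as a black bar and the median of all genes (0.09) as a dotted line. Lists are sorted by their median, from replication-dependent and linker histones (1.13) at the top to ATF4 and its partners (-1.13) at the bottom.

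Across the 45 lists of processes, 13 had a median under -0.5 and 1 a median over 0.5. These numbers were 9 and 1 with total counts and 14 and 1 with DESeq2 size factors. Counts of list members called stand beside 33.9% higher and 29.6% lower of all genes. Where a median changed sign between scalings, both values are given.

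Of 20 transcripts of mTOR, its complexes and substrates 9 were higher and 7 lower, beside 33.9% and 29.6% of all genes, with a median of 0.06. MTOR itself was at 109, 112 and 117 CPM without and 129, 124 and 122 CPM with Torin1 and was not called (0.15, SE 0.08, edgeR adjusted p = 0.101), although it was with total counts. RICTOR, the defining subunit of mTORC2, was not called (-0.05, SE 0.12). RPTOR, that of mTORC1, rose from 31, 30.3 and 39.6 to 75.4, 68.2 and 66.2 CPM (1.06, SE 0.11). AKT1S1, which encodes the mTORC1 inhibitor PRAS40, fell from 304, 338 and 292 to 116, 86.4 and 88.4 CPM (-1.69, SE 0.10), and the inhibitory subunit DEPTOR fell by 0.62 (SE 0.21), a call lost without Torin1 replicate 3. Among substrates, EIF4EBP2 rose by 0.86 (SE 0.08), the adaptor GRB10 by 0.79 (SE 0.10) and the translation repressor LARP1 by 0.31 (SE 0.07), while the S6 kinase RPS6KB1 fell by 0.53 (SE 0.09). EIF4EBP1 had -0.47 (SE 0.17), a call lost with total counts and without starved replicate 3, Torin1 replicate 2 or Torin1 replicate 3.

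Upstream, 12 of 37 nutrient sensing genes were higher and 15 lower, beside 33.9% and 29.6% of all genes. Their median of -0.12 became 0.02 with total counts. The GTPase RHEB, the direct activator of mTORC1, fell from 195, 211 and 192 to 99.05, 84.5 and 98.9 CPM (-1.08, SE 0.09). Genes of the RRAG and LAMTOR families, whose proteins hold mTORC1 on the lysosome, went both ways. RRAGA, RRAGC and LAMTOR3 fell by 0.68 (SE 0.08), 0.74 (SE 0.11) and 0.87 (SE 0.10). LAMTOR5 and LAMTOR2 rose by 0.96 (SE 0.15) and 0.58 (SE 0.13), and RRAGB, RRAGD, LAMTOR1 and LAMTOR4 were not called. The leucine sensor SESN2, also an ATF4 target, fell from 179, 178 and 143 to 55.9, 42.96 and 50.6 CPM (-1.74, SE 0.16). BMT2 (SAMTOR), the sensor of S-adenosylmethionine, fell by 1.21 (SE 0.13), as did the KICSTOR subunit KPTN by 1.40 (SE 0.13). In GATOR1, DEPDC5 fell by 1.02 (SE 0.12) and NPRL3 by 0.45 (SE 0.09), and NPRL2 was not called. In GATOR2, WDR24, WDR59 and MIOS rose by 1.08 (SE 0.15), 0.83 (SE 0.11) and 0.80 (SE 0.12). SEH1L of GATOR2, also a nucleoporin, fell by 1.19 (SE 0.11), and SEC13 of GATOR2 was not called. The lysosomal arginine sensor SLC38A9 rose by 1.14 (SE 0.16) and the mTORC1 repressor TSC2 by 0.67 (SE 0.09). DDIT4 (REDD1), which acts through TSC2, went from 124, 78.8 and 76.97 to 26.6, 16.8 and 21.8 CPM, a fall of 2.09 (SE 0.29).

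Of 38 genes of insulin receptor signalling and FOXO targets 12 were higher and 11 lower, near the 33.9% and 29.6% of all genes, with a median of 0.02 (-0.03 with DESeq2 size factors). The insulin receptor gene INSR rose from 16.7, 14.9 and 17.5 to 47.3, 60.3 and 57.4 CPM (1.75, SE 0.13). IRS4, an insulin receptor substrate known from HEK-293 cells, rose from 102, 96.1 and 111 to 484, 576 and 507 CPM (2.34, SE 0.14), with no overlap between groups. IRS1 and IRS2 were not called, at 0.43 (SE 0.26) and 0.07 (SE 0.14). AKT1 rose by 1.32 (SE 0.11), and FOXO3 rose by 0.59 (SE 0.09) while FOXO1 was not called (-0.10, SE 0.12). Genes known as FOXO targets went both ways. CDKN1B and TXNIP rose by 0.50 (SE 0.10) and 1.04 (SE 0.14), whereas GABARAPL1 fell from 80.95, 95.9 and 77.98 to 21.9, 19.6 and 16.9 CPM (-2.12, SE 0.17) and the Krüppel-like factor KLF15 by 2.38 (SE 0.18).

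Glucose uptake, glycolysis and HIF-1 targets fell in 27 of 41 genes and rose in 5 (median -0.58). HK2 (ENSG00000159399), a hexokinase, which phosphorylates glucose, stood at 205, 242 and 235 CPM in starved replicates 1 to 3 and at 49.8, 41.1 and 42.9 CPM with Torin1, with no overlap (-2.35, SE 0.10, edgeR adjusted p = 2.11e-18). The hexokinase HK1 was not called (0.17, SE 0.10). The glucose transporter SLC2A1 fell by 2.21 (SE 0.10), lactate dehydrogenase LDHA from 1955, 1754 and 1669 to 522, 435 and 499.6 CPM (by 1.88, SE 0.11), the aldolase ALDOA by 1.25 (SE 0.10) and PGAM1 by 1.29 (SE 0.07). VEGFA, the angiogenic factor induced by HIF-1, fell from 132, 151 and 148 to 24.1, 28.1 and 26.1 CPM (-2.46, SE 0.10), and HIF1A itself by 0.44 (SE 0.11). Phosphofructokinase PFKL ran against the pathway, from 58.6, 46.1 and 68.7 to 219, 208 and 228 CPM (1.92, SE 0.13), as did PFKM (0.44, SE 0.09), the stress gene NDRG1 (0.98, SE 0.24) and the HIF hydroxylase EGLN1 (0.27, SE 0.08).

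Cholesterol synthesis fell in 18 of 25 genes and rose in 4 (median -0.70). The sterol enzyme NSDHL fell from 122, 135 and 129 to 45.1, 41.5 and 42.4 CPM (-1.58, SE 0.09), MSMO1 by 1.35 (SE 0.14), MVD by 1.23 (SE 0.10) and squalene synthase FDFT1 by 1.08 (SE 0.09). PMVK rose, from 9.62, 8.61 and 10.01 to 34.2, 29.4 and 27.6 CPM (1.70, SE 0.18). The regulator SREBF1 fell by 0.48 (SE 0.12), and the call of SREBF2 (-0.21, SE 0.07) was lost with total counts and without starved replicate 2.

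In fatty acid and lipid synthesis 10 of 28 genes were called in each direction, near the 33.9% and 29.6% of all genes, with a median of -0.15. ACLY, which makes cytosolic acetyl-CoA from citrate, fell by 0.85 (SE 0.08), the desaturase SCD by 0.79 (SE 0.09) and malic enzyme ME1 by 1.69 (SE 0.12), while FASN was not called (-0.16, SE 0.12). ACSS2, which makes acetyl-CoA from acetate, rose by 1.40 (SE 0.16), as did the carboxylase ACACB (1.31, SE 0.15) and the phosphatidate phosphatase LPIN3 (1.52, SE 0.17).

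In the pentose phosphate and nucleotide list 7 of 29 were higher and 14 lower, with a median of -0.10 that became 0.03 with total counts. De novo purine synthesis fell at its entry enzyme PPAT (-1.37, SE 0.09) and at PAICS (-1.15, SE 0.08) and GART (-0.69, SE 0.07). CAD, which starts pyrimidine synthesis and is activated through S6 kinase, rose by 0.87 (SE 0.13), and the guanine nucleotide enzyme IMPDH2 by 0.48 (SE 0.06). Of 20 polyamine and methionine cycle genes 10 were lower and 5 higher (median -0.34). ODC1, the rate-limiting enzyme, fell by 0.70 (SE 0.08), its inhibitor OAZ1 by 1.15 (SE 0.09) and the eIF5A hydroxylase DOHH from 75.9, 89.8 and 83.3 to 26.4, 18.4 and 17.5 CPM (-1.99, SE 0.15). ADI1 of the methionine salvage pathway rose by 1.62 (SE 0.17).

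Ribosome assembly fell broadly: 41 of 52 factors were lower and 5 higher (median -0.79). DDX21, a nucleolar helicase, went from 921, 945 and 963 to 291, 302 and 279.9 CPM (-1.70, SE 0.09), BYSL, NIP7 and LTV1, which act in subunit maturation, fell by 1.49 (SE 0.09), 1.48 (SE 0.09) and 1.36 (SE 0.09), and the nucleolar scaffold NOLC1 by 1.13 (SE 0.07). The 5 exceptions included WDR75, which rose from 22.4, 24.98 and 23.2 to 62.9, 61.7 and 61.2 CPM (1.39, SE 0.10), PES1 (1.24, SE 0.11) and BMS1 (1.05, SE 0.08). For RNA polymerase I, which makes ribosomal RNA, 16 of 21 genes were lower and 1 higher (median -0.74). The initiation subunit TAF1A fell by 1.98 (SE 0.15) and POLR1F by 1.25 (SE 0.10). The 1 riser was UBTF, the factor that opens ribosomal DNA for transcription, at 47.7, 41.4 and 43.4 CPM without and 156, 142 and 158 CPM with Torin1 (1.79, SE 0.09, edgeR adjusted p = 2.31e-16).

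Of 29 RNA polymerase III genes 11 were called in each direction, beside 33.9% higher and 29.6% lower of all genes, with a median of -0.13 (0.01 with total counts). Its subunit POLR3K fell by 1.93 (SE 0.11) and POLR3A by 0.91 (SE 0.10), while the promoter factors GTF3C3 and BRF1 rose by 1.79 (SE 0.10) and 0.83 (SE 0.11). MAF1, its repressor, had 0.20 (SE 0.08), a call lost with DESeq2 size factors and without any 1 of the 6 libraries but Torin1 replicate 2.

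Cytosolic ribosomal protein genes, whose mRNAs carry a 5′ oligopyrimidine tract that mTORC1 acts on at translation, spanned a narrow range. Of 79, 51 were not called, 18 were higher and 10 lower, all between -0.52 and 0.70, with a median of -0.00 that became 0.13 with total counts. The largest rises among them were RPL29 (0.70, SE 0.09), RPS26 (0.62, SE 0.07) and RPL15 (0.62, SE 0.07), and the largest falls RPL35 (-0.52, SE 0.10) and FAU (-0.51, SE 0.08). Ribosomal protein genes have many near-identical pseudogenes, so their counts are uncertain. Translation factors ranged more widely, with 25 of 48 lower and 12 higher (median -0.21). The release factor ETF1 fell by 1.66 (SE 0.09), EIF2S2 by 1.49 (SE 0.08) and EIF5A, target of DOHH, by 1.16 (SE 0.08). EIF4A2, a helicase that serves initiation and microRNA repression, rose from 75.6, 82.9 and 77.2 to 187, 231 and 246 CPM (1.49, SE 0.09), and the elongation brake EEF2K by 0.87 (SE 0.10).

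Of 18 small nucleolar RNA host genes 7 were higher and 4 lower, beside 33.9% and 29.6% of all genes (median 0.09). SNHG32 rose by 1.64 (SE 0.14) and SNHG15 fell by 1.32 (SE 0.10). Of the 13 mitochondrially encoded protein genes 1 was higher and 0 lower (median 0.21), and that call, MT-CO2 (0.48, SE 0.18), was lost with DESeq2 size factors and without starved replicate 1, starved replicate 2 or Torin1 replicate 2. Nuclear-encoded respiratory chain subunits fell in 29 of 54 cases and rose in 12 (median -0.23), with SDHB at -1.14 (SE 0.09), ATP5F1B at -0.69 (SE 0.07) and, on the other side, NDUFC2 at 0.90 (SE 0.11). Among 22 regulators of mitochondrial biogenesis 13 were lower and 4 higher (median -0.41). The mitochondrial helicase TWNK and transcription factor TFB2M fell by 1.40 (SE 0.09) and 1.76 (SE 0.13), and NRF1 rose by 0.65 (SE 0.14).

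Of 40 heat shock proteins and cochaperones 33 were lower and 2 higher, with a median of -0.91 that, of the 45 process lists, only the ATF4 and early response lists went below. HSPA1B (ENSG00000204388), the stress-inducible HSP70, stood at 2426, 2658 and 3293 CPM in starved replicates 1 to 3 and at 346, 257 and 249.9 CPM with Torin1 (-3.30, SE 0.23, edgeR adjusted p = 3.25e-08). Its coding sequence is near-identical to that of HSPA1A, so reads may be split between them in a way the counts do not show. HSPA1A, named for this reason after its values were seen, was at 8.55, 14.5 and 13.2 CPM and, with Torin1, 1.18, 0.962 and 3.77 CPM. DNAJB1, the cochaperone of HSP70, fell from 404, 429 and 400.1 to 71.1, 48.3 and 54.1 CPM (-2.82, SE 0.13). The HSP90 cochaperones CHORDC1 and PTGES3 fell by 2.34 (SE 0.12) and 1.81 (SE 0.09), the nucleotide exchange factor BAG1 by 2.26 (SE 0.10), and the chaperonin subunits TCP1 and CCT5 by 1.43 (SE 0.08) and 1.12 (SE 0.08). CCT7 of the same chaperonin rose by 0.66 (SE 0.08). The constitutive HSPA8 fell by 0.82 (SE 0.10) and the factor HSF1, which drives the group, by 0.38 (SE 0.10).

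HSF1 binds repeats of the unit GAA in alternating direction. The letters GAANNTTC, which read the same on both strands, stood in the 250 bases before the start of 10 of 35 genes of the chaperone list, against 5.85% of all windows and 3.94% of those of tested genes, and were in 4.32% of windows of genes called lower and 3.83% of those called higher. The ASNS window holds them overlapping its C/EBP-ATF element. The following stretches are from the chaperone genes with the deepest falls that hold the letters, with 1 match in each shown in capitals. CHORDC1 holds 3 matches, and another lies in the printed stretch in lower case.
HSPA1B (chr6:31827613-31827660, plus strand): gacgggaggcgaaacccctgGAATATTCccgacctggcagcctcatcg
CHORDC1 (chr11:90223082-90223129, minus strand): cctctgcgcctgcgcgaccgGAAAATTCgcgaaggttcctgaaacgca
The first capital lies 105 bases before the start in HSPA1B and 60 in CHORDC1.

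Among genes that handle unfolded protein in the endoplasmic reticulum, 22 of 36 were lower and 6 higher (median -0.42). HERPUD1, of the degradation machinery, fell by 2.03 (SE 0.11), the transcription factor XBP1 from 341, 384 and 342 to 121, 116 and 143 CPM (-1.49, SE 0.09), the secreted chaperone MANF by 1.45 (SE 0.10) and the chaperone HSPA5 (BiP) by 0.91 (SE 0.08). DNAJC10, a disulfide reductase of the same compartment, rose from 41.7, 40.6 and 45.3 to 121, 142 and 138 CPM (1.65, SE 0.09) and DERL3 by 2.56 (SE 0.21). NRF2 and its targets, which handle oxidants, fell in 16 of 25 genes and rose in 4 (median -0.71). The peroxiredoxin PRDX1 went from 989, 1056 and 987 to 314, 263 and 269.9 CPM (-1.84, SE 0.09), and TXNRD1 and SRXN1 fell by 1.52 (SE 0.08) and 1.62 (SE 0.11). The glutathione enzyme GCLC rose by 0.66 (SE 0.10) and the heme transporter SLC48A1 by 2.06 (SE 0.25).

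Proteasome subunits fell in 30 of 36 cases and rose in 3 (median -0.79). PSMC4 and PSMD14 of the regulatory particle fell by 1.33 (SE 0.08) and 1.24 (SE 0.10), the ubiquitin receptor ADRM1 by 1.42 (SE 0.10), and PSMB5 and PSMA4 of the core by 0.92 (SE 0.07) and 1.11 (SE 0.08). PSMD3 rose, from 60.2, 59.8 and 69.2 to 176, 154 and 162 CPM (1.38, SE 0.09), and PSMD4 and PSMA1 by 0.43 (SE 0.07) and 0.35 (SE 0.09).

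Lysosomal enzymes and membrane proteins rose in 26 of 52 cases (against 33.9% of all genes) and fell in 15, with a median of 0.23. The cathepsins F and H rose, CTSH from 14.5, 13.8 and 11.1 to 43.5, 38.1 and 38.1 CPM (1.60, SE 0.13) and CTSF by 1.57 (SE 0.14), as did the peptidase TPP1 (1.15, SE 0.09) and the mannosidase MAN2B1 (0.97, SE 0.08). CTSO rose from 0.777, 0.334 and 0.367 to 9.74, 8.57 and 9.83 CPM (4.25, SE 0.35), on 16 counts in starved and 359 in Torin1 libraries. The lysosomal membrane protein LAMP1 fell from 276, 356 and 332 to 126, 120.5 and 123 CPM (-1.38, SE 0.09), and the glycosidases GLA and NEU1 fell by 1.63 (SE 0.10) and 1.11 (SE 0.11). Of the vacuolar ATPase, the proton pump that acidifies the organelle, and the MiT/TFE factors, 17 of 24 genes were lower and 2 higher (median -0.41). ATP6V0B fell by 1.42 (SE 0.11), ATP6V1E1 by 1.27 (SE 0.10) and ATP6V0C by 1.24 (SE 0.14). Of the factors that drive lysosomal genes, TFEB was not called (-0.20, SE 0.24), TFE3 fell by 0.76 (SE 0.10) and MITF rose from 3.79, 2.67 and 3.12 to 9.4, 12.3 and 9.3 CPM (1.69, SE 0.24).

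TFEB and TFE3 bind the CLEAR element. The letters CACGTGAC, on either strand of the same windows, were present in 2.27% of all windows and in 3.91% of those of tested genes. Their share was 5.47% in genes called lower and 2.70% in genes called higher. They were held by 6 of 34 lysosomal, 3 of 18 vacuolar ATPase and 2 of 40 autophagy windows. The LAMP1 window held 5 matches, and the following stretch, which holds 1 of them in capitals and its neighbour on each side in lower case, is shown because this gene fell while carrying them.
LAMP1 (chr13:113297041-113297088, plus strand): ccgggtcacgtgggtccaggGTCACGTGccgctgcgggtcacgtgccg

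Of 46 autophagy genes 13 were higher and 20 lower, beside 33.9% and 29.6% of all genes. Their median was -0.01 (0.12 with total counts). The initiation kinase gene ULK2 rose from 9.91, 5.85 and 6.25 to 27.4, 22.9 and 27.3 CPM (1.83, SE 0.18) and its partner ATG13 by 0.90 (SE 0.09), while ULK1 had 0.28 (SE 0.10), a call lost with DESeq2 size factors, without starved replicate 1 and without Torin1 replicate 1. The adaptors CALCOCO1 and FYCO1 rose by 1.84 (SE 0.11) and 2.16 (SE 0.19). Of the conjugation machinery, ATG4A fell from 80.95, 81.3 and 74.7 to 15.7, 18.1 and 15.8 CPM (-2.25, SE 0.12), ATG5 by 1.42 (SE 0.14) and ATG3 by 1.01 (SE 0.10). The receptor SQSTM1 had -0.23 (SE 0.08), a call lost with total counts and without Torin1 replicate 2. For the membrane-scission complex ESCRT-III 9 of 15 genes were lower and 3 higher (median -0.32), and CHMP6 rose from 4.57, 0.836 and 2.02 to 22.1, 21.1 and 24.9 CPM (3.23, SE 0.26).

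Of 43 immediate early genes and ERK feedback regulators 32 fell and 2 rose (median -1.05). FOSL1 fell from 13.2, 10.6 and 10.9 to 2.3, 0.801 and 0.965 CPM (-3.05, SE 0.32), FOS from 12.9, 6.52 and 4.04 to 1.46, 1.44 and 1.49 CPM (-2.40, SE 0.38), and EGR1 and EGR3 by 2.16 (SE 0.43) and 2.69 (SE 0.41). FOS and EGR1 were highest in starved replicate 1 among starved libraries. JUNB and the survival gene MCL1 fell by 2.34 (SE 0.16) and 1.02 (SE 0.09). SRF, which drives several of these genes and actin genes, fell by 1.33 (SE 0.09), and 25 of 39 SRF, YAP and actin genes were lower and 6 higher (median -0.42). Subunits of the actin nucleator Arp2/3 fell, ARPC5L by 1.74 (SE 0.09), ACTR3 by 1.20 (SE 0.09) and ARPC4 by 1.31 (SE 0.11), as did profilin PFN1 by 1.07 (SE 0.08). Smooth muscle actin ACTA2 rose from 3.01, 2.26 and 2.3 to 20.5, 21.6 and 22.3 CPM (3.09, SE 0.20), and tropomyosin TPM2 by 1.40 (SE 0.23).

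ARPIN (ENSG00000242498), which encodes an inhibitor of Arp2/3, rose by a margin that only ZNF619 and CTSO exceeded among the genes named here. It stood at 5.15, 4.34 and 6.61 CPM in starved replicates 1 to 3 and at 98.98, 95.5 and 92.9 CPM with Torin1, a rise of 4.16 on the log2 scale (SE 0.15, edgeR adjusted p = 9.85e-20). The gene lies next to AP3S2 and shares readthrough transcripts with it, annotated as ARPIN-AP3S2. AP3S2, a subunit of an adaptor for vesicle traffic, rose by 1.10 (SE 0.11) and the readthrough gene by 0.75 (SE 0.14), and since they overlap in sequence these counts are uncertain. At the level of estimated isoform counts, the transcript ARPIN-201 went from 5.10 to 88.8 CPM and held 96.2% of the gene's counts in starved and 92.8% in Torin1 libraries.

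ZNF619, a zinc finger gene, had the largest rise among the genes named here, from 0.194, 0.251 and 0.276 to 10.2, 10.7 and 17.2 CPM (5.65, SE 0.34), on 8 counts in starved and 477 in Torin1 libraries. The isoform ZNF619-203 was listed at 0 in the starved libraries and held 80.6% of the gene's isoform counts with Torin1. In WDR31, which rose by 3.67 (SE 0.33) on 28 and 421 counts, the isoform WDR31-202 likewise was listed at 0 in starved libraries and held 84.2% with Torin1. Isoform shares are estimates from short reads. The GTPase gene RASL10B rose from 4.08, 2.67 and 1.75 to 47.05, 38.4 and 47.02 CPM (3.97, SE 0.20), CDKN2AIPNL from 2.92, 2.92 and 2.75 to 45.3, 35.7 and 39.8 CPM (3.81, SE 0.17) and the ubiquitin ligase adaptor ASB13 from 4.96, 3.59 and 5.24 to 58.5, 59.7 and 63.2 CPM (3.72, SE 0.17). Lack of overlap between the groups was part of the rule that named these genes. The other largest rises included EFNB3, TTC5, ZNF358, F8A1, MBLAC2, OSBPL7, PLEKHG4 and AL035425.4, between 3.41 and 3.77. F8A1 has near-identical copies and its share of their reads is uncertain.

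Among the largest falls outside the groups above, GALR2, the receptor for the neuropeptide galanin, went from 12.3, 16.5 and 12.2 to 0.835, 0.401 and 0.351 CPM (-4.62, SE 0.38) and NPPC, which encodes C-type natriuretic peptide, from 22.4, 29.5 and 19.8 to 3.76, 1.28 and 2.37 CPM (-3.25, SE 0.25). The alpha globin gene HBA1 was evenly present in starved libraries, at 17.2, 17.8 and 16.99 CPM, and lower with Torin1, at 3.27, 1.04 and 1.14 CPM (-3.20, SE 0.28). HBA1 and HBA2 encode the same protein, so their split is uncertain. MFSD2A, a transporter of lysophospholipids, fell by 3.10 (SE 0.21), the vesicle protein gene SYT11 by 3.07 (SE 0.20), and PRRG2, the secreted peptide gene OSTN and DHRS2 by 4.16 (SE 0.32), 3.75 (SE 0.35) and 3.02 (SE 0.66). The level of DHRS2 was uneven in starved libraries, at 54.03, 71.4 and 28.01 CPM.

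D-type cyclins and CDK inhibitors fell in 11 of 19 cases and rose in 5 (median -0.64). The CDK inhibitor CDKN2D fell from 41.8, 49.05 and 47.2 to 6.61, 3.69 and 3.42 CPM (-3.31, SE 0.25), cyclins CCND1 and CCND2 by 0.64 (SE 0.11) and 1.12 (SE 0.10), and the phosphatase CDC25A by 1.43 (SE 0.08). The pocket proteins RBL1 (p107) and RBL2 (p130), which repress E2F genes, rose from 15.8, 9.02 and 10.47 to 45.8, 48.6 and 48.6 CPM (2.02, SE 0.15) and from 20.02, 21.98 and 21.5 to 79.3, 99.9 and 87.6 CPM (2.07, SE 0.12), and the inhibitors CDKN2C and CDKN1B rose by 0.99 (SE 0.10) and 0.50 (SE 0.10). Of 48 E2F targets and replication genes 16 were higher and 22 lower, beside 33.9% and 29.6% of all genes. Their median was 0.01 (-0.04 with DESeq2 size factors). They ranged from LIG1, the replicative ligase, at 2.38 (SE 0.10) to ORC6 at -1.37 (SE 0.08). Of 43 mitotic genes 10 were higher and 19 lower, beside the same shares of all genes (median -0.09, or 0.05 with total counts). BIRC5, KIF11 and PLK1 rose by 1.41 (SE 0.10), 1.23 (SE 0.09) and 1.07 (SE 0.08). CDC20 and CCNF fell by 0.99 (SE 0.08) and 0.95 (SE 0.10).

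MYC (ENSG00000136997) rose from 137, 106 and 134 to 258, 226 and 227 CPM (0.92, SE 0.11). In its network 7 of 17 genes were higher and 6 lower, beside 33.9% and 29.6% of all genes. The median was 0.11, or -0.02 without starved replicate 2. The glucose-sensing pair of this network diverged. MLXIPL (ChREBP) rose by 1.88 (SE 0.23) and its partner MLX fell by 1.21 (SE 0.08). Their targets diverged as well, since TXNIP, which restrains glucose uptake, rose from 44.6, 47.4 and 37.4 to 99.8, 90.6 and 75.4 CPM (1.04, SE 0.14) and its paralog ARRDC4 fell from 157, 144 and 136 to 48.5, 41.8 and 37.4 CPM (-1.77, SE 0.11).

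Histones had the highest median of the 45 lists, 1.13, with 11 of 17 higher and 3 lower. The linker histone H1-10 rose from 132, 119 and 106 to 336, 258 and 318 CPM (1.36, SE 0.13), and H2BC21, H2BC5 and H2AC6 by 1.59 (SE 0.20), 1.39 (SE 0.20) and 1.13 (SE 0.15). The variants H2AZ1, H3-3A and H3-3B, made outside S phase as well, were the 3 that fell, by 0.95 (SE 0.09), 0.21 (SE 0.07) and 0.41 (SE 0.08), and the call of H3-3A was lost with total counts. Replication-dependent histone mRNAs mostly lack a poly(A) tail and histone genes share sequence, so their counts are uncertain.

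Among splicing regulators 21 of 38 were lower and 8 higher (median -0.28), with SRSF4 and SRSF7 falling by 1.08 (SE 0.08) and 1.04 (SE 0.08) and HNRNPA1 rising by 0.72 (SE 0.07). In the BCL2 family, which controls mitochondrial cell death, 7 of 14 were higher and 6 lower, beside 33.9% and 29.6% of all genes (median 0.32). The pro-death members BMF and HRK rose by 1.79 (SE 0.17) and 1.06 (SE 0.16), BAX and BCL2L11 (BIM) fell by 0.74 (SE 0.09) and 0.72 (SE 0.12), and the protective BCL2L1 fell by 0.82 (SE 0.12). NF-kappa-B genes fell in 7 of 17 cases and rose in 3 (median -0.51, or -0.24 without starved replicate 1), with RELB at 15.2, 14.8 and 12.03 CPM without and 2.92, 2.88 and 3.07 CPM with Torin1 (-2.24, SE 0.22). Of 19 circadian genes 7 were called in each direction, beside 33.9% higher and 29.6% lower of all genes (median 0.09, but -0.13 without starved replicate 2 and -0.05 without Torin1 replicate 3), PER1 and BMAL1 falling by 1.31 (SE 0.11) and 1.27 (SE 0.17). Of 15 iron genes 7 were lower and 4 higher (median -0.16), and the transferrin receptor TFRC fell from 628, 786 and 708 to 147, 155 and 131 CPM (-2.29, SE 0.13). In zinc handling 9 of 20 were lower and 6 higher (median -0.22, or -0.48 without Torin1 replicate 3), with the exporter SLC30A1 at -2.05 (SE 0.16), its activator MTF1 at -1.47 (SE 0.15) and the importer SLC39A7 at -1.76 (SE 0.09). ID genes and BMP feedback held 3 higher and 4 lower of 16 (median -0.04, or 0.10 with total counts), among them ID4 at -0.99 (SE 0.12) and SMAD6 at 0.88 (SE 0.16).

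The response of starved cells was next set beside that of fed cells, whose libraries it does not share. With Torin1, 10361 genes were called in cells fed for 1 h (63.1%), 33.2% higher and 29.9% lower, and 9198 in cells fed for 4 h (56%), 27.4% higher and 28.6% lower. Of the 5559 genes higher with Torin1 in starved cells, 85.2% were also higher in cells fed 1 h and 60.2% in cells fed 4 h, and their median log2 fold change was 1.06, 0.97 and 0.58 in the 3 states. Of the 4859 lower genes, 87.6% and 69.9% were lower in the fed states, with medians of -0.74, -0.69 and -0.53.

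Against cells fed for 1 h, the difference in response itself was called for 11 of 16414 genes (0.067%), 9 with a more positive log2 fold change in starved cells (0.0548%) and 2 with a more negative one (0.0122%). With DESeq2's Wald test the number was 43 and with limma-voom 3, and it was 39 without fed 1 h replicate 1. It was between 3 and 7 without starved replicate 2 or 3, starved Torin1 replicate 2 or 3, or any 1 of the fed 1 h Torin1 libraries. TXNIP had log2 fold changes of 1.04 in starved and -0.33 in 1 h fed cells, and its mean untreated level was 43.1 ± 5.16 CPM in starved and 15.9 ± 2.94 CPM in 1 h fed cells (SD, n = 3). EGR3 went from 3.59 ± 1.07 to 0.529 ± 0.266 CPM (SD, n = 3) in starved cells, and after 1 h of feeding it was at 14.4 ± 2.8 CPM untreated and 16.2 ± 6.09 CPM given Torin1, a log2 fold change of 0.17. SLC30A1 fell by 2.05 in starved cells and had -0.49 in 1 h fed cells. KBTBD7, an adaptor of a ubiquitin ligase, rose by 2.99 in starved cells and had 1.25 in 1 h fed cells.

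**Figure D3:**
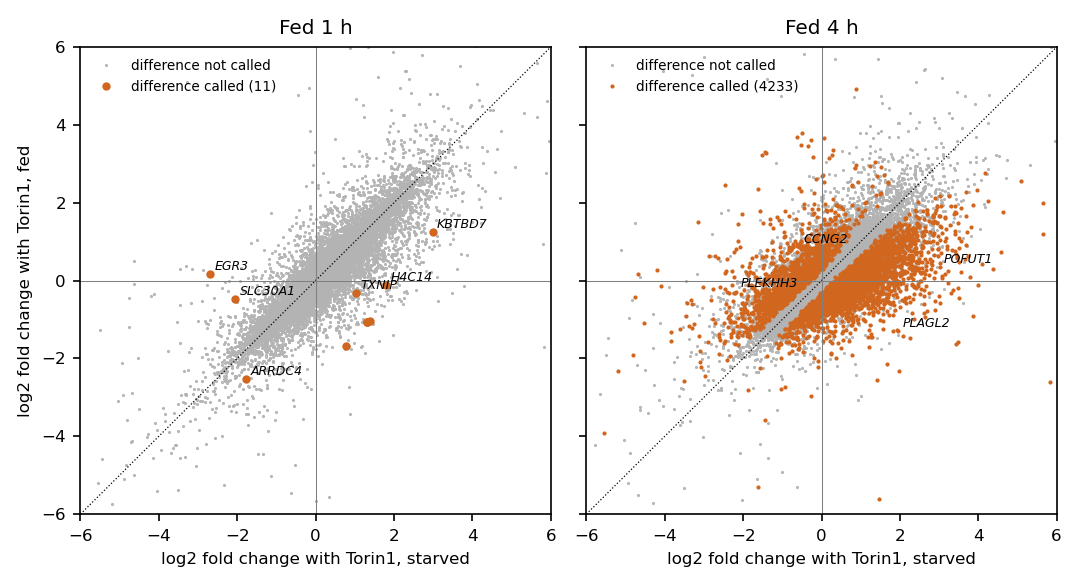
Log2 fold change with Torin1 in starved cells (x axis) against that in cells fed for 1 h (left) or 4 h (right), a point for each tested gene, with the dotted line where both are equal. KBTBD7, TXNIP and the other labelled genes lie off that line, and orange points are the 11 and 4233 genes whose difference between states was called, and 62 and 54 points beyond the axes are not drawn.

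Against cells fed for 4 h, 4233 genes differed in response (25.8%), 2634 with a more positive log2 fold change in starved cells (16%) and 1599 with a more negative one (9.74%). Among genes higher with Torin1 in starved cells, 405 were lower with Torin1 after 4 h of feeding, and 108 went the other way. The smallest adjusted p by edgeR was that of PLAGL2 and MEN1. PLAGL2, a transcription factor, rose from 15.6 ± 3.13 to 60.7 ± 2.81 CPM (SD, n = 3) in starved cells, with no overlap (1.96, SE 0.11) and had a log2 fold change of -1.29 after 4 h, from 134 ± 5.45 to 54.6 ± 1.04 CPM (SD, n = 3), a difference of 3.26 (SE 0.15, edgeR adjusted p = 5.28e-16). MEN1, which encodes the scaffold menin, rose from 21.7 ± 1.88 to 125 ± 5.64 CPM in starved cells (SD, n = 3) and was at 144 ± 8.38 and 123 ± 7.36 CPM after 4 h. The protein O-fucosyltransferase POFUT1 rose from 15.9 ± 2.44 to 128 ± 3.65 CPM in starved cells and was at 97.01 ± 4.91 and 124 ± 10.2 CPM after 4 h. For MEN1 and POFUT1 the Torin1 level in starved cells lay near both levels after 4 h, while the untreated levels in starved and 1 h fed cells were low. Among falls, PLEKHH3 went from 143 ± 10.8 to 31.6 ± 2.21 CPM in starved cells and was at 28.02 ± 1.74 and 23.1 ± 2.53 CPM after 4 h, and the cyclin gene CCNG2 fell by 0.57 in starved cells and had 0.86 after 4 h.

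Across the genes called for this difference the untreated levels differed more between states than the Torin1 levels. By construction the difference in response equals the shift of the untreated level from starved to 4 h fed cells less the shift of the Torin1 level. For the 2634 genes the untreated level was higher after 4 h of feeding in 99.7%, with a median shift of 0.85 on the log2 scale of mean CPM plus 0.25, while the median shift of the Torin1 level was -0.00. For the 1599 genes the untreated level was lower in 98.9%, with median shifts of -0.63 and 0.07. Of all genes tested the untreated level was higher after 4 h in 49.6% and lower in 50.4%. The 2634 and 1599 genes were picked by the difference in response, so these directions are not a separate result. The untreated level shifted more than the Torin1 level, in absolute terms, in 95.2% and 92.8% of these genes and in 75.2% of all genes tested.

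**Figure D4:**
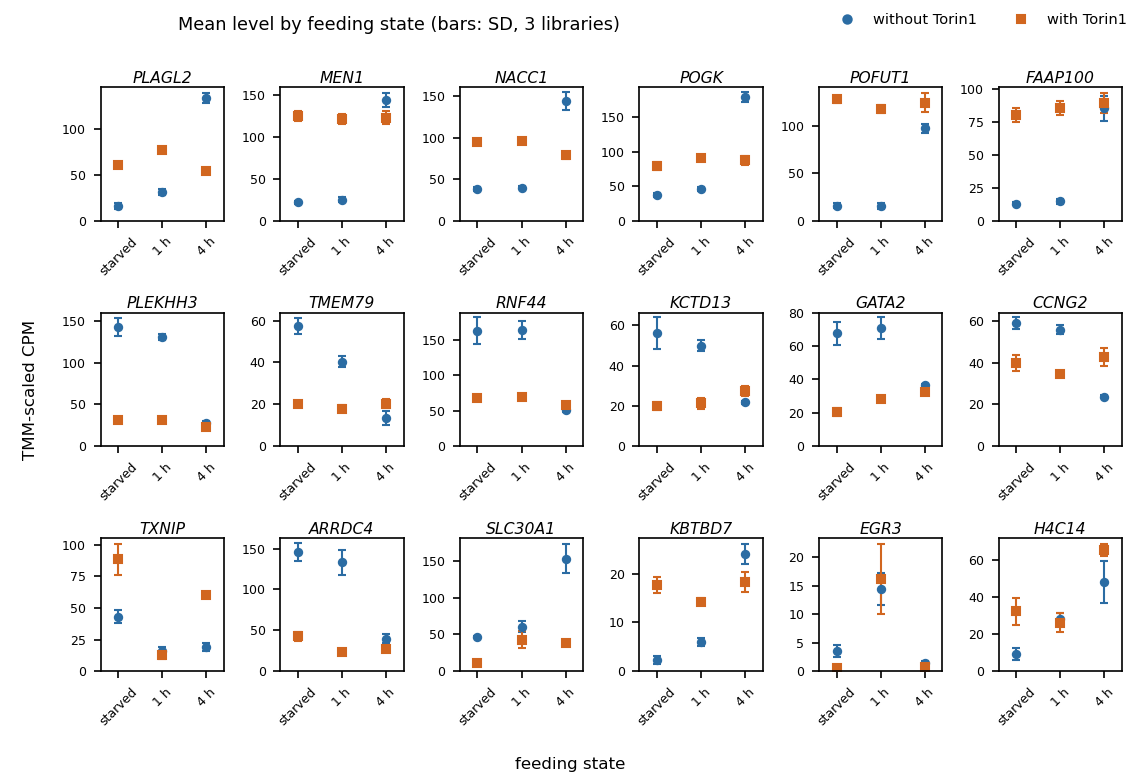
Mean level of 18 genes in starved cells and in cells fed for 1 h and 4 h, without (blue circles) and with Torin1 (orange squares), in TMM-scaled CPM with bars for the SD of 3 libraries. In MEN1, POFUT1 and FAAP100 the Torin1 levels are alike in the 3 states, while the untreated level is low in starved and 1 h fed cells and high after 4 h.

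The counts of list members here stand beside those of all genes, 16% of which responded more positively in starved than in 4 h fed cells and 9.74% more negatively. Of 18 ATF4 genes 2 were more positive and 5 more negative, and of 41 glycolysis genes 3 were more positive and 4 more negative. ASNS had -3.00, -2.79 and -2.68 in starved cells, after 1 h and after 4 h, SLC7A11 had -4.89, -5.10 and -4.44, and SLC7A5 -2.56, -2.77 and -2.82, with no difference called. In the ATF4 list, DDIT3 had -2.46 in starved and -0.22 in 4 h fed cells (edgeR adjusted p = 3.56e-05 for the difference). TRIB3 had -2.32 and -0.85 (edgeR adjusted p = 4.78e-07), while ATF5, among the 2 more positive, had 0.65 and -0.87. Of 28 enzymes of asparagine, proline, glutamine, cysteine and glutathione metabolism 5 were more positive and 4 more negative. Among the latter was CTH, with -3.51 and -2.58. CHAC1 fell more in starved than in 4 h fed cells, with a difference of -1.63 (SE 0.58, edgeR adjusted p = 0.0434), and so did HK2 (-0.41, SE 0.13, edgeR adjusted p = 0.0209). The difference for CHAC1 rests on few counts, with 16, 13 and 3 in the starved Torin1 libraries. ARPIN rose more in starved than in 4 h fed cells (1.41, SE 0.20, edgeR adjusted p = 1.75e-06). DNAJB1 had -2.82 in starved and -0.51 in 4 h fed cells (-2.32, SE 0.18, edgeR adjusted p = 4.15e-09), and 10 of the 40 chaperone genes had a more negative and 4 a more positive response in starved cells. Of 39 SRF, YAP and actin genes 19 had a more negative and 1 a more positive response in starved cells, whereas of 29 RNA polymerase III genes 15 had a more positive and 1 a more negative one. In the latter list CRCP, a polymerase III subunit, rose by 1.22 in starved cells and had -1.26 after 4 h, and in the ribosome assembly list, with 14 more positive, WDR75 rose by 1.39 and had -0.52. MYC rose by 0.92 in starved cells and had -0.37 after 4 h (1.29, SE 0.15, edgeR adjusted p = 2.29e-07).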

How the data were processed

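Total RNA of HEK-293E cells was sequenced, and the deposited tables hold RSEM estimated counts (expected counts) per gene and per isoform, as deposited by the authors. STAR and RSEM are named in the submitters' processing notes. The labels' protocol names a nematode genome build, while the gene identifiers are human Ensembl ones. For the human build, annotation release, strand setting and tool versions, nothing was given in the sources used here. Of the deposited estimated count values 3.32% were not whole, and all were rounded before testing.

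Gene names came from a table of identifiers (60295 of 60623) and from GENCODE 29 (309), and 1435 of 1439 list entries matched. Library totals were 10510689 to 13676378 in the 6 libraries compared, and 3 counts equal 0.219 to 0.285 CPM. Genes were kept by filterByExpr (minimum count 10), scaled by TMM and tested with edgeR 4.0.16 (robust quasi-likelihood, R 4.3.3) on 6 group means over all 18 libraries, with 12 residual degrees of freedom. P-values were adjusted by Benjamini-Hochberg over 16414 genes, and SE is the absolute log2 fold change divided by the square root of F. Differences between states are contrasts in the same fit. The members and gene lists were chosen with earlier results of these data known. Genes named are the 15 largest changes in each direction (mean of at least 5 CPM, called, groups not overlapping), up to 8 members of each list by smallest p plus up to 4 called against its majority, up to 6 genes in each direction per difference between states, and a fixed list of regulators. Alternatives were DESeq2 1.42.0 size factors and Wald test, total counts, limma 3.58.1 (voom), other filters, a replicate block, the compared groups alone, and each library left out. Scripts were tested on simulated counts. Promoter windows are RefSeq's 250 bases before each start (GRCh38.p14). Some genes that the rule names are not reported here.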

Additional observations from a re-analysis of the deposited data

Results flagged for a closer look

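The response to Torin1 differed between starved and re-fed cells by the test of the difference itself, for 11 genes against cells fed 1 h and for 4233 against cells fed 4 h. Values below are the log2 fold change in starved cells less that in fed cells, by edgeR's quasi-likelihood test.

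Against 1 h of feeding the difference was 1.74 for KBTBD7, 1.365 for TXNIP, 0.7656 for ARRDC4 and 1.914 for H4C14, a histone gene that shares its coding sequence with H4C15. It was -1.56 for the zinc exporter SLC30A1 and -2.863 for EGR3.

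Against 4 h of feeding it was 3.256 for PLAGL2, 2.756 for MEN1, 2.2 for the transcriptional repressor NACC1, 2.132 for POGK, 2.657 for POFUT1 and 2.558 for FAAP100, a member of the Fanconi anaemia core complex. It was -1.892 for PLEKHH3, -2.106 for TMEM79, -1.453 for RNF44, -1.817 for the ubiquitin ligase adaptor KCTD13, -1.554 for the transcription factor GATA2 and -1.429 for CCNG2.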

How the results depend on the processing

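The counts of genes called with Torin1 in starved cells, and of genes whose response differed from 4 h fed cells, stayed within 1.5 times their value under every alternative run. Leaving out 1 library gave 5064 to 5288 higher and 4503 to 4690 lower genes. The 11 genes that differed from 1 h fed cells became 43 with DESeq2's Wald test, 3 with limma-voom, 77 with no filter and 4 with only the groups compared, and 3 to 39 with 1 library left out. The cause was not tested. With the replicate number as a block the 11 became 23, and the genes called in starved cells 5626 higher and 4921 lower. Between starved and starved Torin1 libraries, deviations of same-numbered ones correlated at 0.142, 0.0175 and 0.0132 over 11674 genes. Those of differently numbered ones correlated at -0.132 to 0.124. With 3 libraries in each group, these values cannot decide whether replicate numbers pair the samples. Of 516 named genes, 501 to 515 kept their call and direction under each alternative of scaling or tool that gave all of them a value, 502 to 506 with 1 library left out, and none reversed under any alternative run. Total counts moved 41 of 49 list medians and DESeq2 size factors 14. Genes near the floor of 3 counts, such as ZNF619 in starved cells and CHAC1 with Torin1, have fold changes that rest on few counts.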
